A study of Mus musculus with 6 samples.

Results

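The 10 genes of zinc handling described here, named alone by 21 probe sets of an Affymetrix mouse array, were followed in 3 related lines of mouse hepatocellular carcinoma cells. They were 5 zinc importers (Slc39a4, Slc39a5, Slc39a8, Slc39a10 and Slc39a14), 2 zinc exporters (Slc30a1 and Slc30a5), 2 metallothioneins (Mt1 and Mt2) and the zinc-sensing transcription factor Mtf1, out of 18193 genes measured. The family was chosen by the signal of Slc39a4, which in M1 stood far from that of the other lines, so the levels of Slc39a4 are a description and carry no test. All 10 members had at least 1 probe set, and none was removed for a low signal.

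The parent of the other lines was BL185. From it came M1 and I1, cell populations selected for migration, each called a subclone in the sample titles, and no subclone without this selection is analysed here. All lines were grown in DMEM with serum, the labels name no added zinc or other agent, and each was measured on 2 arrays. The labels do not say that these were separate cultures, so a p-value here is set against array-to-array spread alone, part or all of which may be technical.

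Zinc enters the cytosol through ZIP proteins, encoded by the Slc39 genes, from outside the cell or from organelles. ZnT proteins, encoded by the Slc30 genes, move it out of the cytosol. Metallothioneins are small cysteine-rich proteins that bind the free metal. MTF1 senses zinc and binds short DNA elements, the metal response elements, in the promoters of Mt1, Mt2 and Slc30a1, which it activates when zinc is plentiful. In the liver, ZIP14 is the importer that takes up zinc during inflammation, and metallothionein holds the zinc so gained.

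The metal response element core was looked for in RefSeq promoter windows of build GRCm38.p6, 250 bases before to 50 after a start site, because the metallothioneins are its best known carriers and their signals ran together below. The core was written as TGCACNC or TGCGCNC and searched on both strands, and hits that overlapped were counted once. Windows were found for 8 of the 10 members, not for Slc39a4 and Slc39a14. The Mt2 window held 4 cores, and 0.295% of all 32851 windows held at least 4. The Mt1 window held 3, against 1.31% of windows with at least 3, and the Slc30a1 window held 2, against 6.14% with at least 2. At least 1 core was found in 25.7% of windows, so the single cores in windows of Slc39a5, Slc39a8 and Slc30a5 are common. The windows of Slc39a10 and Mtf1 held none, which says only that these letters are not in them. Below stand the 250 bases upstream of Mt2 (chr8:94172368-94172617, plus strand), with 3 of its cores in capitals, and the 23 bases around each core of Mt1 and Slc30a1, which both lie on the plus strand of their chromosomes.

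Mt2: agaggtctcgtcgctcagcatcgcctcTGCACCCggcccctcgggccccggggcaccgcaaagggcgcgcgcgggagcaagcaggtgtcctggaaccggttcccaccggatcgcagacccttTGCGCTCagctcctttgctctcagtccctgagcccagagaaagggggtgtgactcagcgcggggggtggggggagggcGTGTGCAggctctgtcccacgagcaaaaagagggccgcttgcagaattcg
Mt1 (chr8:94179058-94179080): tcccgctgTGCACACtggcgctc
Mt1 (chr8:94179083-94179105): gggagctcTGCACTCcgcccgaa
Mt1 (chr8:94179101-94179123): ccgaaaagTGCGCTCggctctgc
Slc30a1 (chr1:191906730-191906752): ggggttccGAGTGCAaagcaaag
Slc30a1 (chr1:191906803-191906825): tccgggccGAGCGCAgtcgccgc

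All 3 Mt1 cores read forward, whereas both Slc30a1 cores read on the opposite strand, as does the last core printed for Mt2. A core is a match of letters, not a measured binding site.

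Every value below is an RMA log2 signal, and signals of different genes are not compared. The array medians lay between 7.87 and 8.11, and a signal at or below them cannot be told from background. M1 replicate 1 stood apart, with an SD over probe sets of 1.62 against 1.83 to 1.97 on the other 5 arrays, and the M1 arrays correlated at 0.911 against 0.994 or more in the other lines. Where a result rests on it, the value without that array follows. The 3′ control for ribosomal RNA of the small subunit read 10.11 and 10.14 in BL185, 12.50 and 10.68 in the M1 line and 11.27 and 11.51 in I1, so it was higher in both selected lines. Signal of the Actb control fell from its 3′ to its 5′ probe set by 0.88 to 1.08 log2 units on the parental arrays. On every selected array this fall was larger, at 1.24 to 1.47. The part of either control in the differences from BL185, or in probe sets of a gene that disagree, was not tested. Of the hepatocyte markers, Krt8, Krt18 and Hnf4a were high in every line, at 11.94 or more, but albumin (7.53 to 8.43) lay near the array medians and Afp (7.14 to 7.99) did so on every array but M1 replicate 1 (9.89). Of the 8 hepatocyte markers 0 passed the test described below in M1 or I1 against BL185, with 0 at an unadjusted p under 0.05. The secreted carrier Ttr was the fourth hepatocyte marker above the medians, at 8.72 to 9.92. In cell lines measured in bulk, fewer cells with a transcript and less transcript per cell cannot be told apart.

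Slc39a4 encodes ZIP4, the importer that brings dietary zinc into intestinal cells and whose loss in people causes the zinc deficiency acrodermatitis enteropathica. It read 11.56 and 11.62 in BL185, 7.44 and 7.92 on the M1 arrays and 10.93 and 11.15 in I1. The M1 arrays were more than 3 log2 units below every other array, and the I1 arrays lay a little below the parent's without overlap. The means were in the order BL185 (11.59 ± 0.04, SD, n = 2), I1 (11.04 ± 0.15) and M1 (7.68 ± 0.34). The gap between BL185 and I1 was 0.55 log2 units, and that between I1 and M1 was 3.36. On the linear scale the M1 signal was 0.0666 of the parent's and the I1 signal 0.685 of it. Because the M1 signals were below the medians of their own arrays, the difference of −3.91 between M1 and BL185 is not exact. It was −3.67 without M1 replicate 1. A single probe set names the gene, so no second one was there to compare.

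**Figure D1:**
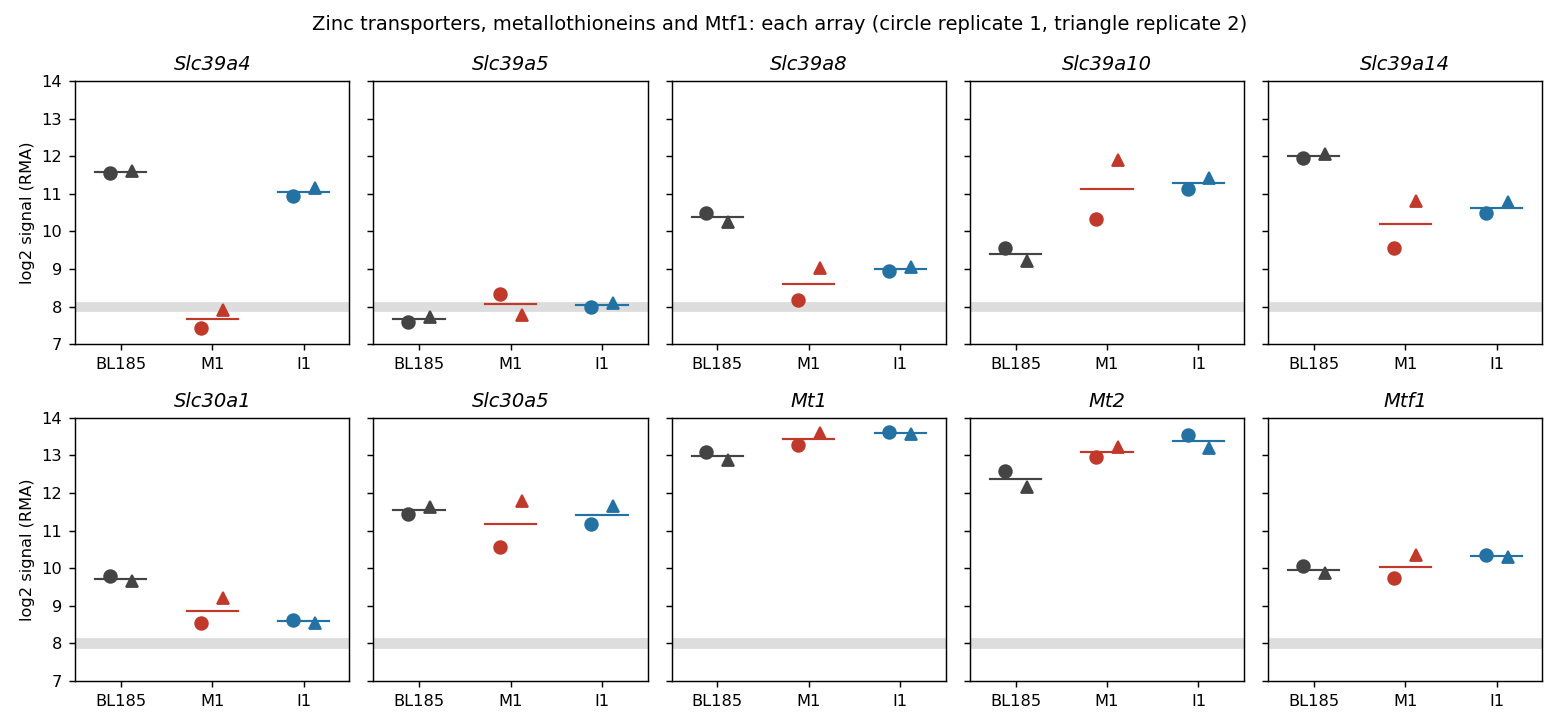
RMA log2 signal of the 10 genes on each of the 6 arrays (circle, replicate 1; triangle, replicate 2; line, mean of the 2 arrays), with the range of the array medians in grey. Slc39a4 lies in or below the grey band in M1 and far above it in BL185 and I1, whereas Slc39a8, Slc39a14 and Slc30a1 lie lower and Slc39a10, Mt1 and Mt2 higher on the arrays of both selected lines.

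No other member separated M1 from I1 in this way. In I1 against M1, 0 of the other 9 had arrays that did not overlap, against 16.1% of all genes. By limma with Benjamini-Hochberg adjustment over all genes, 0.00% of genes and 0 of the other 9 members passed an adjusted p of 0.05 there, with 409 genes (2.25%) and 0 of the 9 at an unadjusted p under 0.05. The differences of the 9, I1 minus M1, ran from −0.28 in Slc30a1 to 0.45 in Slc39a14. These intervals were wide: for Slc39a10 the 95% interval of the difference was −1.19 to 1.48, and for Mt1, the narrowest, −0.35 to 0.67. The counts of members that follow include Slc39a4, from which nothing is read, since it was chosen by its signal in M1. Without M1 replicate 1, 20.6% of genes passed, and 3 members did: Slc39a4, Slc39a10 (−0.64) and Slc30a1 (−0.62), the sign of Slc39a10 having been positive with all arrays (0.15), although it was −0.11 after cyclic loess. Without M1 replicate 2, 57.0% of genes and 6 members passed, and after cyclic loess 0.286% of genes and 1 member, Slc39a4.

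Against the parent, most members lay apart on the arrays, but few of the differences passed an adjusted p of 0.05. Leaving Slc39a4 aside, 7 of the other 9 members had M1 arrays that did not overlap those of BL185, against 51.9% of all genes. In I1 it was 8 of 9, against 76.0%. All 4 arrays of the selected lines were above both parental arrays for 4 members (21.3% of all genes), which are Slc39a5, Slc39a10, Mt1 and Mt2. They were below them for 3 of the other 9 (23.3% of all genes), Slc39a8, Slc39a14 and Slc30a1, and for Slc39a4. These comparisons share the BL185 arrays, so a direction common to M1 and I1 is not 2 independent observations. By limma, 0.879% of genes passed in M1, and of the members Slc39a4 passed there, from which nothing is read since it was chosen for that contrast. Of the other 9, 0 passed in M1, with 5 at an unadjusted p under 0.05, as had 15.4% of all genes. In I1, 0.511% of genes and 0 of 10 members passed, with 6 of the other 9 at an unadjusted p under 0.05, as had 11.6% of all genes.

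The count of members called moved with each array left out. With M1 replicate 1 left out, 7 of 10 members passed in M1 (24.0% of genes) and 9 of 10 in I1 (46.6% of genes). Without M1 replicate 2 it was 8 in M1 (70.8% of genes) and 9 in I1 (46.6% of genes). In both fits the lone M1 array is assumed to vary like the other lines. Without any 1 of the BL185 or I1 arrays, 0 genes passed in either line, so each call named here, Slc39a4 included, is lost there. The share of calls that were higher moved with the scaling, from 31.2% in M1 and 37.6% in I1 as deposited to 46.0% and 48.4% after cyclic loess, and to 52.6% and 59.1% after quantile normalization. After cyclic loess 10.0% of genes passed in M1 and 8.70% in I1, with 4 members in each: Slc39a8, Slc39a10 and Slc39a14 in both, joined by Slc39a4 in M1 and by Slc30a1 in I1. The counts of members include Slc39a4 wherever it passed, and nothing is read from its part in them.

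**Figure D2:**
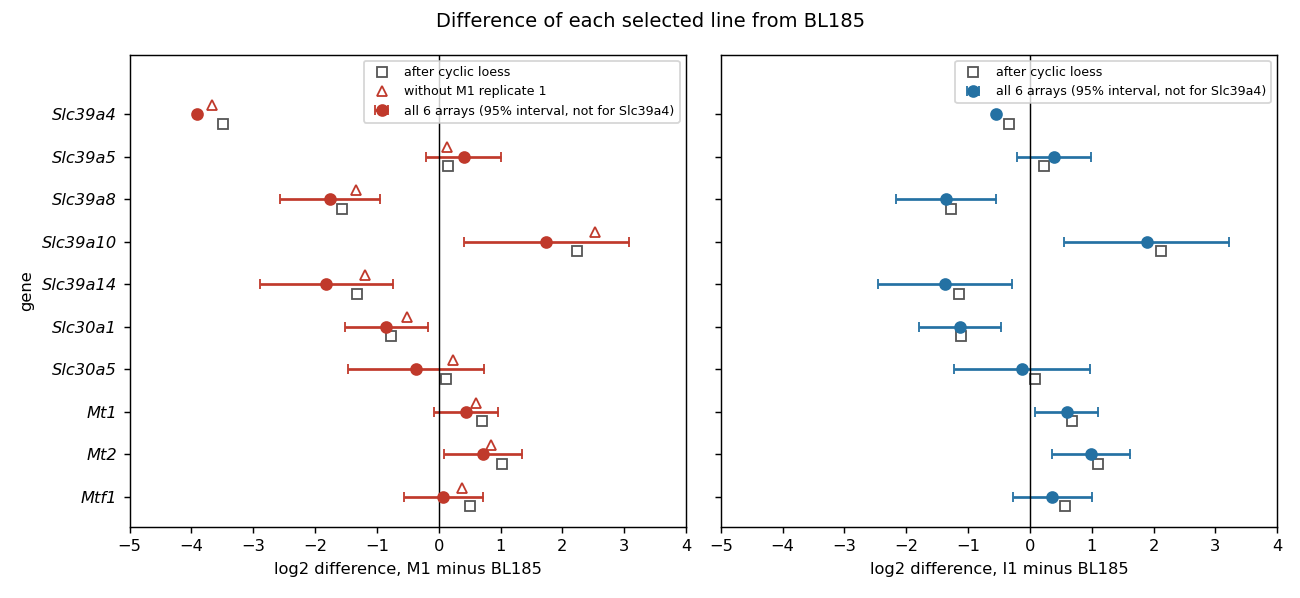
Log2 difference of M1 (left) and I1 (right) from BL185 for each gene (filled points, all 6 arrays, with 95% intervals of the limma fit except for Slc39a4), beside the value after cyclic loess (squares) and, for M1, without M1 replicate 1 (triangles). Slc39a8, Slc39a14 and Slc30a1 stay below 0 and Slc39a10, Mt1 and Mt2 above 0 in each of these settings, whereas Slc30a5 lies on both sides.

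Among the importers, Slc39a8 and Slc39a14 were lower in both selected lines. Their products, ZIP8 and ZIP14, are closely related and carry manganese and iron as well as zinc. Slc39a8 read 10.50 and 10.25 in BL185, 8.19 and 9.04 in M1 cells and 8.95 and 9.07 in I1. The selected arrays were all below the parental ones by more than 1 log2 unit, and M1 replicate 1 was the lowest. The difference was −1.76 ± 0.32 in M1 (SE; limma adjusted p = 0.0921) and −1.36 ± 0.32 in I1 (adjusted p = 0.191). Without M1 replicate 1 it was −1.33 in M1, close to the I1 value. A second Slc39a8 probe set had differences of −0.81 in M1 and −0.67 in I1, in the same direction.

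Slc39a14 read 11.95 and 12.07 in BL185, 9.57 and 10.81 in the M1 line and 10.48 and 10.79 in I1. All selected arrays were again below the parental ones, with M1 replicate 1 the lowest. The difference was −1.82 ± 0.43 in M1 (limma adjusted p = 0.153) and −1.37 ± 0.43 in I1 (adjusted p = 0.303), and −1.20 in M1 without M1 replicate 1. Its 4 probe sets did not move alike. The third had −0.64 and −0.74, with the selected arrays at 7.78 to 8.01, below their medians. But the first, at 9.55 and 9.50 in BL185, read 10.70 and 9.47 on the M1 arrays and 10.34 and 9.76 in I1. Its difference was 0.56 in M1 and 0.52 in I1. The fourth, at 7.05 to 7.27 on all arrays, was below the medians. The mean of the probe sets gave −0.45 in M1 and −0.36 in I1. Which transcripts each probe set detects is not given in the sources used here.

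Slc39a10 went the other way. Its product ZIP10 is a plasma membrane importer, and MTF1 is known to hold its gene down when zinc is plentiful. Slc39a10 read 9.55 and 9.22 in BL185, 10.34 and 11.91 in M1 cells and 11.12 and 11.43 in I1. Every selected array was above both parental ones, and the M1 arrays, 1.11 in SD, spanned the I1 values. The difference was 1.74 ± 0.53 in M1 (limma adjusted p = 0.237) and 1.89 ± 0.53 in I1 (adjusted p = 0.250). The M1 value was 2.52 without M1 replicate 1, and after cyclic loess 2.23 in M1 (adjusted p = 0.00863) and 2.12 in I1 (adjusted p = 0.0121). The second probe set, at 8.12 and 8.24 in BL185, read 7.49 and 9.43 in the M1 line and 7.94 and 8.17 in I1, so only M1 replicate 2 stood above the parent with it, and the mean of both probe sets gave 1.01 in M1 and 0.88 in I1.

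Slc39a5 encodes ZIP5, an importer of the basolateral membrane of intestinal and pancreatic cells. It read 7.60 and 7.72 in BL185, 8.34 and 7.78 on the M1 arrays and 8.002 and 8.10 in I1. These signals lay around the array medians, where they cannot be told from background. The differences were 0.40 ± 0.24 in M1 (limma adjusted p = 0.434) and 0.39 ± 0.24 in I1 (adjusted p = 0.629), and 0.13 in M1 without M1 replicate 1.

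**Figure D3:**
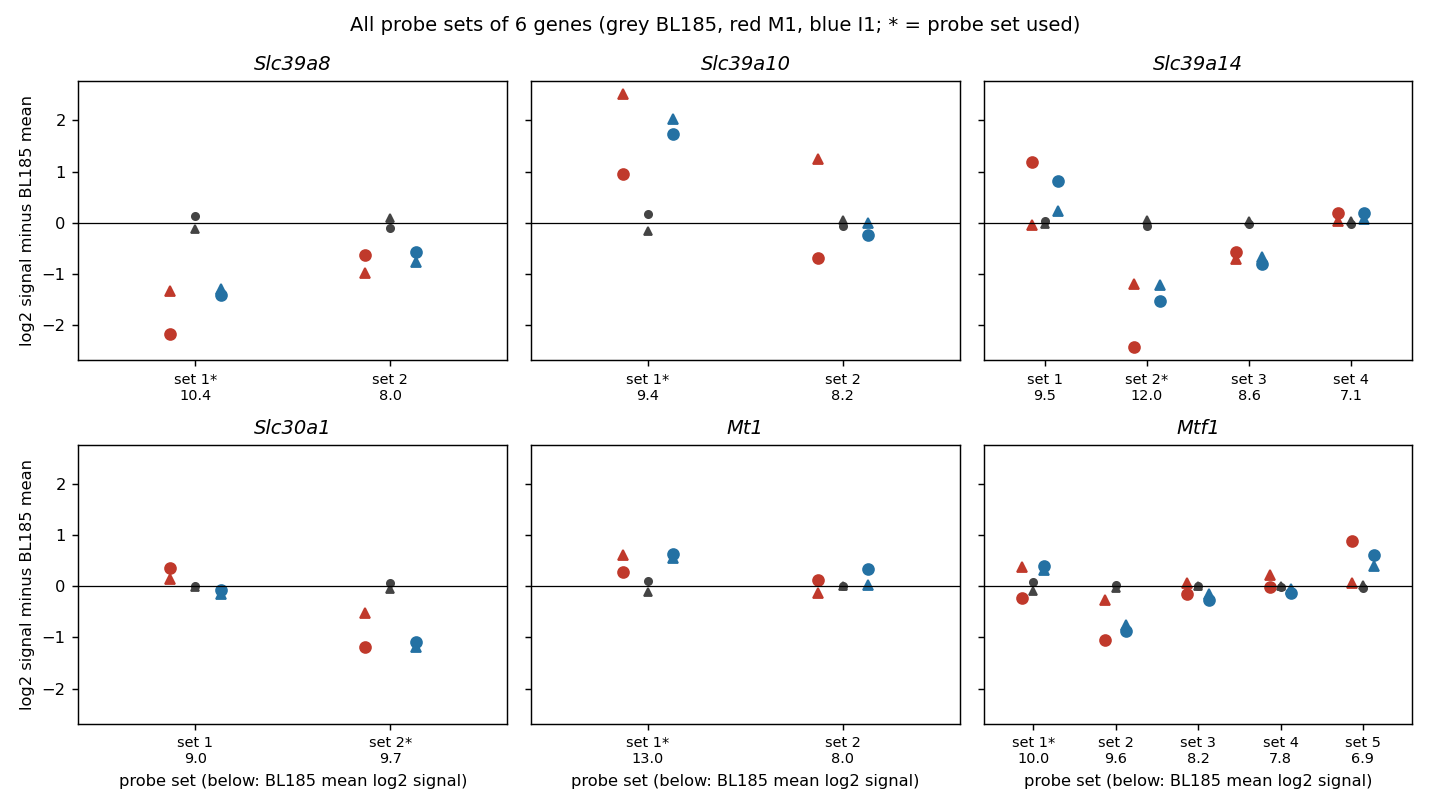
Every probe set of the 6 members that have more than 1, as log2 signal minus the BL185 mean of that probe set, by array (circle, replicate 1; triangle, replicate 2), with the BL185 mean under each set and a star on the set used. Both Slc39a8 sets are lower in M1 and I1, the second of them near background, whereas the sets of Slc39a14, Slc30a1 and Mtf1 lie on both sides of 0.

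Of the exporters, Slc30a1 encodes ZnT1, which removes zinc across the plasma membrane. It read 9.78 and 9.66 in BL185, 8.53 and 9.20 in M1 cells and 8.63 and 8.54 in I1. All selected arrays were below the parental ones, M1 replicate 2 by the least. The difference was −0.85 ± 0.26 in M1 (limma adjusted p = 0.246) and −1.13 ± 0.26 in I1 (adjusted p = 0.189), and −0.51 in M1 without M1 replicate 1. A second Slc30a1 probe set read 8.98 and 8.96 in BL185, 9.33 and 9.11 in the M1 line and 8.90 and 8.83 in I1. Its differences were 0.25 in M1 and −0.11 in I1, so the lower signal was seen with 1 of the 2 probe sets, and their mean gave −0.30 in M1 and −0.62 in I1.

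Slc30a5 encodes ZnT5, which with ZnT6 delivers zinc to enzymes of the secretory pathway such as alkaline phosphatase. It read 11.45 and 11.62 in BL185, 10.57 and 11.77 on the M1 arrays and 11.16 and 11.64 in I1. The arrays of all 3 lines overlapped. The difference was −0.37 ± 0.43 in M1 (95% interval −1.46 to 0.73) and −0.13 ± 0.43 in I1 (−1.23 to 0.97), with limma adjusted p-values of 0.612 and 0.909. Without M1 replicate 1 it was 0.24 in M1, and after cyclic loess it was 0.11 in M1 and 0.08 in I1, so its sign was not settled.

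The metallothionein signals were far above the medians on every array and somewhat higher in both selected lines. Mt1 read 13.10 and 12.89 in BL185, 13.26 and 13.60 in M1 cells and 13.63 and 13.55 in I1. Mt2 read 12.59 and 12.17 in BL185, 12.96 and 13.23 in the M1 line and 13.54 and 13.19 in I1. For both genes all 4 selected arrays were above both parental arrays, with the nearest M1 array of Mt1 only 0.17 above. For Mt1 the difference was 0.44 ± 0.20 in M1 (limma adjusted p = 0.377) and 0.60 ± 0.20 in I1 (adjusted p = 0.348). For Mt2 it was 0.71 ± 0.25 in M1 (adjusted p = 0.284) and 0.99 ± 0.25 in I1 (adjusted p = 0.207), which is 1.64 and 1.98 times the parental signal. The M1 differences were 0.61 for Mt1 and 0.85 for Mt2 without M1 replicate 1.

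Mt1 and Mt2 are neighbours on chromosome 8, in a row with Mt3, and their sequences are alike. Across the 6 arrays, which share 3 lines, their signals correlated at r = 0.97. Whether each probe set is free of signal from the other gene was not tested. A second Mt1 probe set lay at 7.91 to 8.38, around the array medians, and had differences of 0.00 in M1 and 0.18 in I1, and averaging it in gave Mt1 differences of 0.22 and 0.39. Of the metallothioneins outside the family, Mt3 (7.84 to 8.23) and Mt4 (6.64 to 6.86) were at or near background on every array.

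Mtf1, the zinc sensor, read 10.05 and 9.87 in BL185, 9.73 and 10.34 on the M1 arrays and 10.36 and 10.29 in I1. The M1 arrays lay on either side of the parental ones, and the I1 arrays just above them. The difference was 0.08 ± 0.25 in M1 (limma adjusted p = 0.858) and 0.36 ± 0.25 in I1 (adjusted p = 0.668). Its second probe set read 9.63 and 9.57 in BL185, 8.56 and 9.33 in M1 cells and 8.73 and 8.84 in I1, differences of −0.66 and −0.81, so the direction depended on the probe set. The other 3 lay at 6.88 to 8.28.

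Among these known targets of MTF1, the probe sets used thus read higher in the selected lines for Mt1 and Mt2 and lower for Slc30a1. Of 5 further genes reported to be under MTF1, 1 fell and 0 rose in M1 and 0 were called in I1, with 3 and 2 at an unadjusted p under 0.05. Over all genes 0.879% were called in M1 and 0.511% in I1, with 15.4% and 11.6% at an unadjusted p under 0.05. The counts of each list below stand beside these same shares. The gene that fell was Pgf, placental growth factor, a ligand of the VEGF receptor FLT1. Pgf read 11.70 and 11.56 in BL185, 9.10 and 8.96 in the M1 line and 10.68 and 10.60 in I1, with no overlap between any of the lines. Its difference was −2.60 ± 0.17 in M1 (limma adjusted p = 0.0153) and −0.99 ± 0.17 in I1 (adjusted p = 0.110). The median difference over the 5 genes was −0.61 in M1 and −0.42 in I1, beside 0.07 and 0.06 over all genes. The M1 median was that of Gclc, which was −0.04 without M1 replicate 1. The middle value of the 5 was then that of Selenow, −0.32. Ndrg1 was also lower, with −1.85 in M1 and −1.02 in I1, and −1.42 in M1 without M1 replicate 1. Its unadjusted limma p was 0.00189 in M1 and 0.0233 in I1. Csrp1 ran the other way, with 0.95 in M1 and 0.85 in I1, and its unadjusted limma p was 0.0464 in M1.

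Among the other zinc transporters no gene was called. Of the 9 other ZIP genes 0 passed in M1 or I1, with 2 in each at an unadjusted p under 0.05, and their median difference was −0.05 in M1 and 0.14 in I1. The smallest p-values in M1 were those of Slc39a11, which read 12.23 and 12.10 in BL185, 10.76 and 11.40 on the M1 arrays and 11.42 and 11.45 in I1 (differences −1.09 and −0.73), and of Slc39a9, with −0.83 and −0.57. Leaving out M1 replicate 1 gave −0.77 in M1 for Slc39a11 and −0.41 for Slc39a9. In I1 the second smallest was that of Slc39a13, which was 0.51 higher than in BL185. Of 8 other ZnT genes and the zinc transporter gene Tmem163, 0 passed, with 1 at an unadjusted p under 0.05 in M1 and 0 in I1. The smallest p-values in M1 were here those of Slc30a4, an exporter into vesicles, with −1.26 ± 0.34 in M1 and −0.82 ± 0.34 in I1, and of Slc30a9, with −1.12 and −0.42. Leaving out M1 replicate 1 gave −0.81 in M1 for Slc30a4 and −0.38 for Slc30a9. Neither Mt3 and Mt4 nor the zinc receptor gene Gpr39 passed in either line, and 0 of these 3 had an unadjusted p under 0.05.

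Enzymes that receive zinc in the secretory pathway were represented by 8 measured genes of 9. Of these 1 fell and 0 rose in each selected line. It was Car6, the secreted carbonic anhydrase, at 11.44 and 11.76 in BL185, 8.47 and 7.62 in M1 cells and 8.24 and 8.13 in I1 (limma adjusted p = 0.0235 and 0.0370). The selected arrays lay near the array medians, so the differences of −3.56 and −3.42 are not exact. Alpl, the tissue-nonspecific alkaline phosphatase, was 0.99 ± 0.17 higher in M1 and 0.94 ± 0.17 in I1, with adjusted p-values of 0.0784 and 0.111.

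Transport and storage of other metals was represented by 13 measured genes of 14, of which 0 passed in M1 or I1, with 4 and 2 at an unadjusted p under 0.05. Their median difference was −0.40 in M1 and −0.14 in I1. Without M1 replicate 1 the middle M1 difference of the 13 was that of Fth1, −0.16. Hmox1, the heme-degrading enzyme that metals and oxidants induce, read 12.24 and 12.04 in BL185, 9.22 and 10.07 in the M1 line and 10.63 and 10.38 in I1. Its difference, −2.50 ± 0.32 in M1, just missed the threshold (limma adjusted p = 0.0502), and that in I1 was −1.64 (adjusted p = 0.142). The M1 difference of Hmox1 was −2.07 without M1 replicate 1. Tfrc, the transferrin receptor of iron uptake, was higher by 1.10 ± 0.23 in M1 and 1.23 ± 0.23 in I1, with adjusted p-values of 0.119 and 0.122.

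The genes whose signals followed Slc39a4 most closely were sought among 361 genes that, like it, spanned at least 2 log2 units between lines. Over the 6 arrays the highest correlations were those of 2610528A11Rik (r = 0.994), Sprr2h, a small proline-rich protein (0.994), Tlcd2 (0.990), Calml4, a calmodulin-like protein (0.988), and Dbp, a clock-controlled transcription factor (0.985). Sprr2h read 13.82 and 13.86 in BL185, 10.08 and 10.995 on the M1 arrays and 13.18 and 13.33 in I1, and belongs to a family of close copies whose probe sets can share signal. Tlcd2 read 11.29 on both BL185 arrays, 9.15 and 8.96 in M1 cells and 10.93 and 11.14 in I1. The 3 most opposed were the membrane glycoprotein gene Pdpn (−0.992), the acetylcholine receptor subunit gene Chrna1 (−0.963) and the transcription factor gene Sox11 (−0.942). Pdpn read 8.32 and 8.16 in BL185, 10.73 and 10.83 in the M1 line and 8.47 and 8.52 in I1. The 6 points come from 3 lines, so these correlations describe the lines and no more. Within the family the closest to Slc39a4 were Slc39a8 (0.745) and Slc39a14 (0.736).

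Markers of intestinal epithelium, where Slc39a4 is best known, also ran lower in M1. The summed signal of the 6 markers was 14.44 and 14.51 in BL185, 12.48 and 13.30 on the M1 arrays and 14.48 and 14.71 in I1, on the log2 scale. Both M1 arrays were below all others. Cdh17, an intestinal cadherin, read 13.36 and 13.44 in BL185, 10.00 and 11.39 in M1 cells and 12.95 and 13.19 in I1. Cdx2, the intestinal transcription factor, read 12.03 and 12.23 in BL185, 9.49 and 10.94 in the M1 line and 11.48 and 11.88 in I1. Lgals4 and Vil1 were lower in M1 too (differences −0.76 and −0.60; −0.49 and −0.58 without M1 replicate 1, where that of Cdx2 went from −1.91 to −1.19), whereas Fabp2 and Muc2 were at or near background on all arrays. In M1 against BL185 0 of the 6 passed in limma, with 4 at an unadjusted p under 0.05, and the part of these genes in the Slc39a4 difference was not tested. Of 5 leukocyte markers, 2 fell in M1 and 1 in I1. Cd68, a lysosomal protein of macrophages, read 10.74 and 10.56 in BL185 against 7.37 to 7.78 in both selected lines (limma adjusted p = 0.0148 in M1 and 0.0262 in I1). Cd53, a leukocyte tetraspanin, read 9.67 and 9.58 in BL185 against 7.86 to 8.35 (adjusted p = 0.0469 and 0.0766). The leukocyte markers' summed signal was 11.66 and 11.55 in BL185, 10.67 and 10.20 on the M1 arrays and 10.49 and 10.41 in I1. The sum is of linear signals, so the brightest genes weigh most in it. Of the 5 differences, 3 were positive and 2 negative in each line, with a median of 0.04 in M1 and 0.10 in I1. Lyz2 read 8.53 and 8.51 in BL185, 9.54 and 8.72 in M1 cells and 8.95 and 9.07 in I1. Its differences were 0.61 and 0.49, and 0.20 in M1 without M1 replicate 1. Ptprc, the defining leukocyte marker, was below the array medians throughout, at 6.25 to 7.17, and the part of these genes in the differences of the zinc genes was not tested.

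**Figure D4:**
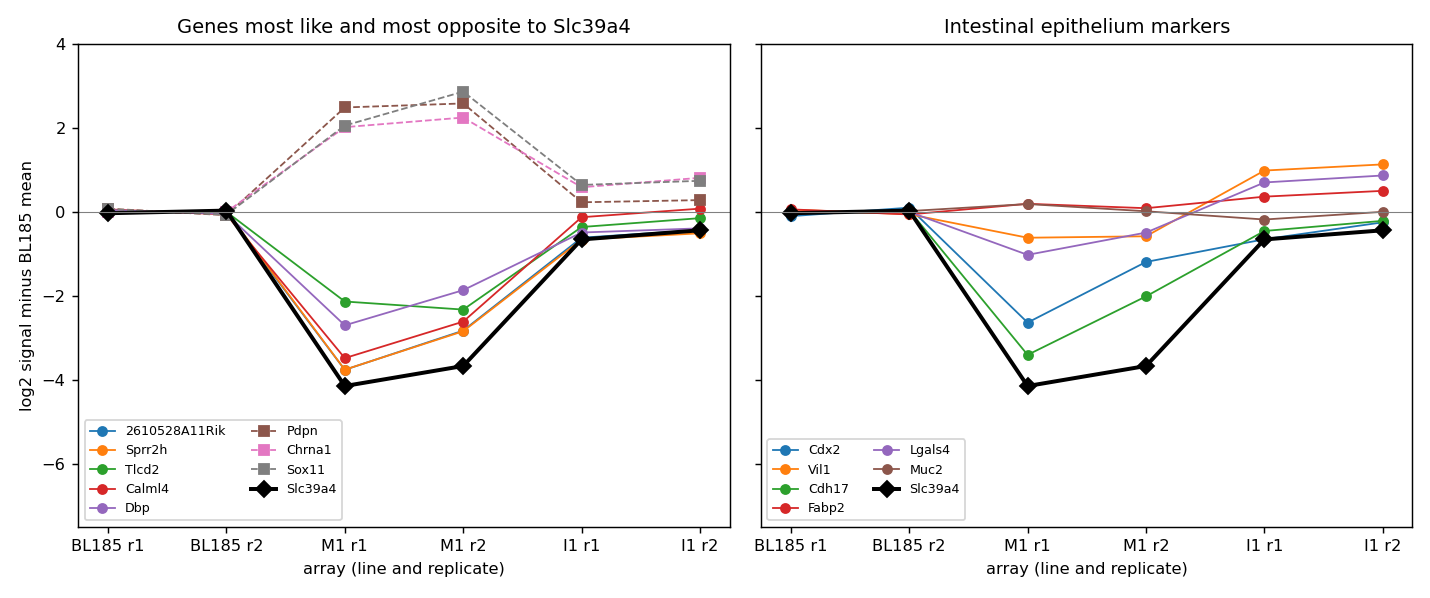
Log2 signal minus the BL185 mean on each of the 6 arrays for Slc39a4 (black diamonds) with, on the left, the 5 genes of highest and the 3 of lowest correlation with it (solid and dashed) and, on the right, 6 markers of intestinal epithelium; lines only join the values of a gene. Cdx2 and Cdh17 lie below 0 on both M1 arrays, as does Slc39a4.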

How the data were processed

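The values deposited by the authors are log2 signals, 1 for each probe set on each array. They were made with RMA and the affy package, per the submitters' processing notes, whose versions were not given in the sources used here. The log2 scale was read from the range, 5.80 to 15.4. Per the labels' protocols, Trizol RNA was labelled with a 3′ IVT kit. Of 45101 probe sets, 34945 named 1 gene, 932 several and 9160 none, and 64 were controls. Of the 1-gene sets 34741 matched RefSeq by Entrez identifier, and 0 symbols changed. The number of unused sample columns was 0. Each gene was taken from its probe set of highest mean. limma 3.58.1 (R 4.3.3) estimated the mean of each line from all 6 arrays together (3 residual and 2.27 prior degrees of freedom), with Benjamini-Hochberg adjustment within each contrast over 18193 genes, a threshold of 0.05, and SEs and intervals from this pooled fit. The code of the fit was checked on simulated data of equal spread on all arrays, unlike that of M1 here. Members, lists, and the rule for named genes (all members, list genes called or else the 2 of smallest p, and genes most like Slc39a4) were chosen with earlier results of these data known. Some list genes, among them Alpl, Csrp1 and Ndrg1, were named beyond this rule. The marker lists for pancreatic acinar, endothelial, stellate and bile duct cells had 0, 0, 0 and 1 genes called in M1 and 0 in I1, with 0, 0, 0 and 1 at an unadjusted p under 0.05 in each line; the gene called was Sox9 (−2.06 in M1). Alternatives covered filters, probe set choice, normalization, array weights, the replicate block, the arrays fitted and each array left out. The number of arrays limits the precision. Figures were drawn in Python 3.11.15 with matplotlib 3.10.9.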

Additional observations from a re-analysis of the deposited data

Results flagged for a closer look

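Besides the members, the 47 other listed zinc and metal genes, the cell type markers and the genes most like or opposite to Slc39a4 were searched. In 6 of these genes the M1 arrays lay on one side of both BL185 arrays and the I1 arrays on the other. The share of all genes with this pattern was not counted, so nothing is read from the number of these genes. Cela1 (7.95 to 8.51 on all arrays) and Vil1 in M1 (8.20 and 8.235) were near the array medians. For Krt19 the lower I1 array read 15.04, against 15.01 on the higher BL185 array. The difference, I1 minus M1, was 1.66 for Vil1, 1.54 for Lgals4, 0.82 for Hnf4a, 0.73 for Tfr2, a second transferrin receptor, 0.46 for Cela1 and 0.38 for Krt19, with I1 the higher line each time. Without M1 replicate 1 it was 0.41 for Hnf4a. In limma's test of that difference none of the 6 passed: the adjusted p was 0.210 for Vil1, 0.507 for Lgals4 and 0.9999 for the other 4. Vil1 and Lgals4 are markers of the intestinal epithelium, Hnf4a of hepatocytes. None of the 10 zinc genes behaved in this way, since each member that left the parental range on all 4 selected arrays did so on a single side.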

How the results depend on the processing

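Counts of calls were recomputed under 8 other settings and with each array left out, and member differences under the same settings except every probe set and, for Slc39a5, the minimum mean. Genes called in M1 numbered 338 with the mean of probe sets, 243 with every probe set, 1820 after cyclic loess, 1170 after quantile normalization, 312 with array weights, 38 with the replicate block and 0 with the lines compared only. In I1 they numbered 172 with every probe set, 1582 after cyclic loess, 980 after quantile normalization, 8551 with array weights, 1 with the block and 8481 with the lines compared only, and in I1 against M1 1 at a minimum mean log2 of 8, 52 by cyclic loess, 4 by quantile scaling and 2 by array weights. Members called were 2 (mean of probe sets), 4 (cyclic loess), 3 (quantile) and 0 (lines compared only) in M1, 4 (cyclic loess), 1 (quantile), 9 (array weights) and 9 (lines compared only) in I1, and 1 after cyclic loess and 1 with array weights in I1 against M1. With 1 array left out, genes called ran from 0 to 12879 in M1, 0 to 8481 in I1 and 0 to 10365 between them, and members from 0 to 8, 0 to 9 and 0 to 6. The cause of these shifts was not tested. All counts of members called include Slc39a4 wherever it passed, from which nothing is read. Leaving out M1 replicate 1 turned Slc39a10, I1 minus M1, from 0.15 to −0.64, and leaving out M1 replicate 2 gave 0.93. Against BL185, only Slc30a5 and Mtf1 changed sign in the settings run for member differences, both in M1 and I1; single probe sets of Slc39a10, Slc39a14 and Slc30a1 had the other sign. Whether arrays of the same replicate number were handled together is not known here. Replicate deviations correlated at −0.13 between BL185 and M1, 0.16 between BL185 and I1 and 0.37 between M1 and I1. With the block 1 member was called in M1 and 0 in I1. Dim signals limit Slc39a5 and Slc39a4 in M1.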
